A study of Mus musculus with 2 samples.

Results

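The GABA-A receptor subunit genes described here are *Gabra2*, *Gabra3*, *Gabra4*, *Gabra5*, *Gabrb1*, *Gabrd*, *Gabrg1* and *Gabrg3*, 8 of the 32285 genes counted, chosen by symbol from a written list. The subunit genes outside these 8 were not analysed here, so each share below is a share of these 8 genes and not of the whole receptor family. Single nuclei of the hippocampus were sequenced in 1 library of PS19 mice (PS19+/- *Zbp1*+/+) and 1 library of PZKO mice (PS19+/- *Zbp1*-/-), all males aged 9 months. Both genotypes carry the human P301S tau transgene, which the prion promoter drives, and differ in *Zbp1*, the gene of a sensor of Z-form nucleic acids. The labels call each library pooled while the protocol has animals processed separately, nothing in the counts tells the animals apart, and no library of mice without the transgene was analysed here. With 1 library per genotype the design has no replicate check, so no test was made and every interval below is a 95% interval that covers counting error only.

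GABA-A receptors are chloride channels built from several subunits around a central pore, and they carry most fast inhibition in the brain. Alpha and beta subunits form the sites where GABA binds, a gamma subunit places many receptors at synapses, and the delta subunit belongs to receptors outside synapses that carry a steady, tonic current. The alpha subunit sets much of the response to benzodiazepines and to low GABA. In the hippocampus, alpha 5 is known for tonic inhibition of pyramidal neurons, and alpha 4 with delta for that of dentate granule cells.

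The genes lie in 2 clusters and at 2 single loci of the mm10 genome (GENCODE M21 gene models). On chromosome 5, *Gabrg1* (ENSMUSG00000001260, chr5:70751047-70842617), *Gabra2* (ENSMUSG00000000560, chr5:70957597-71095849), *Gabra4* (ENSMUSG00000029211, chr5:71569749-71658308) and *Gabrb1* (ENSMUSG00000029212, chr5:71658113-72149037) occupy 1398 kb, the first 3 on the minus strand and *Gabrb1* on the plus strand. *Gabra4* and *Gabrb1* stand head to head and their gene models overlap by 196 bases. On chromosome 7, *Gabrg3* (ENSMUSG00000055026, chr7:56716465-57387188) and *Gabra5* (ENSMUSG00000055078, chr7:57407672-57510059) follow each other on the minus strand, 20.5 kb apart, and *Gabra5* overlaps *Gm9962* and a further gene on the opposite strand. *Gabrd* (ENSMUSG00000029054, chr4:155384980-155398112) and *Gabra3* (ENSMUSG00000031343, chrX:72432681-72656848) lie alone, both on the minus strand. The genes span between 13.1 kb (*Gabrd*) and 671 kb (*Gabrg3*), which matters in nuclei because introns add to the counts, so levels are compared between genes only per kb.

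The starts of the 4 genes on chromosome 5 are shown for 2 differences between neighbours. *Gabrg1* was at background in granule cells and pyramidal neurons, where the other 3 were read. The head-to-head pair was highest in different cells, although its levels went together across the classes of nuclei (Pearson correlation 0.84). Each window runs from 250 bases before to 50 bases after the start site on the strand of the gene (RefSeq, GRCm38.p6), with CG dinucleotides in capitals. For *Gabrb1*, which has 2 windows in that table, the one nearest to the start of the gene model was taken.
Gabrg1 promoter, chr5:70842568-70842867, minus strand: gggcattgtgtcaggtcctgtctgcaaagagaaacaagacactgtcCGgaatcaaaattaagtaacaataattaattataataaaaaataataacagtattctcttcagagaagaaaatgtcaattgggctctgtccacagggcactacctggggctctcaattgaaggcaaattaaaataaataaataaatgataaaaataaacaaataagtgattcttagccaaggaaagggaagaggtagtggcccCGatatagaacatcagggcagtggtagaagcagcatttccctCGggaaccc
Gabra2 promoter, chr5:71095800-71096099, minus strand: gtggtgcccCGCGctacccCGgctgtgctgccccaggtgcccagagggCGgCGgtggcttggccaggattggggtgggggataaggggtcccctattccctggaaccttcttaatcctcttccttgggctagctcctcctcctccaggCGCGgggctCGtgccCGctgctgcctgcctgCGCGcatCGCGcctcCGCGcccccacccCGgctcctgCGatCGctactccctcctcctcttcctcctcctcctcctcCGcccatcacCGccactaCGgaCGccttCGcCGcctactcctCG
Gabra4 promoter, chr5:71658259-71658558, minus strand: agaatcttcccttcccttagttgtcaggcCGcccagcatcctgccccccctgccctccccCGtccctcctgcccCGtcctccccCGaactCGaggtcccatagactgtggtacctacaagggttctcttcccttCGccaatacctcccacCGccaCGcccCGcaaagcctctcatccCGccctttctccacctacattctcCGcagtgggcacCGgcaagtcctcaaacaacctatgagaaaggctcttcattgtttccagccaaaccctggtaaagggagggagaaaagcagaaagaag
Gabrb1 promoter, chr5:71657671-71657970, plus strand: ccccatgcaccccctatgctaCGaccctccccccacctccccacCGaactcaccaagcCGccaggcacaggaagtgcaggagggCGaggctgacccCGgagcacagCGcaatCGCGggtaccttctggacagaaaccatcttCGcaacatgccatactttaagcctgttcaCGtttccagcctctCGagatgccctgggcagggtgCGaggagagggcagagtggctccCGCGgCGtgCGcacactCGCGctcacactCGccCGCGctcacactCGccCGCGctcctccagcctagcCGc
The *Gabrg1* window held 3 CG dinucleotides, the *Gabra4* window 12, and the *Gabra2* and *Gabrb1* windows 25 each, against a median of 7 over 32817 windows of the same length. The letters GCGNGGGCG, read on both strands, occurred 2 times in the *Gabrb1* window and in none of the other 3, and 5.56% of all windows held them. A match of letters is a description and not a binding site. RefSeq windows matched 7 of the 8 genes, *Gabrd* being the exception.

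The PS19 library held 11469 nuclei with a median of 5642 unique molecular identifiers (UMIs), and the PZKO library 10920 nuclei with a median of 8342.5. After filters and the removal of doublets, 9590 and 9307 nuclei were kept, with 100571195 and 152268056 UMIs. The libraries shared 47 cell barcodes, of which 29 were kept in both. The targeted gene *Zbp1* had 92 UMIs (0.915 CPM, which scales the UMIs of each class and library to the same total) in the PS19 library and 38 (0.2496 CPM) in the PZKO library. The position of the deletion was not known from the sources used here, so a 3′ count may lie outside it. Nuclei were clustered with the 8 genes left out, and 25 classes were named from marker genes or from their marker class with 2 leading genes. An oligodendrocyte cluster led by *Oasl2* and *Nlrc5* (8 PS19 and 21 PZKO nuclei), below the 50 nuclei asked of a class, is left out below, which leaves 24. Of these, 12 neuron classes, astrocytes and oligodendrocyte precursor cells (OPC) are described by genotype, 14 classes in all, with between 91 and 1167 nuclei per class and library. Of the 5 clusters left unnamed, that led by *Ebf2* and *Corin* is described with the genotype comparison and the other 4 mainly in the closing section.

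Counts in cells that should lack these genes set the background. Microglia, endothelial cells and the 3 larger oligodendrocyte clusters held between 95.1 and 121 CPM of the 8 genes together in PS19 and between 91.6 and 123 CPM in PZKO, against 2494 CPM in CA1 neurons and 2754 CPM in near-projecting neurons of PS19. In microglia, *Gabra2* stood at 25.1 CPM in PS19 and 20.6 CPM in PZKO, *Gabra5* at 21.8 and 14.9 CPM, *Gabrb1* at 28.8 and 41.2 CPM, and each of *Gabra3*, *Gabrd*, *Gabrg1* and *Gabrg3* below 10 CPM. Levels near these values are read as background and not as expression. As a percent of the level over all nuclei in PS19, the microglial level ran from 1.53% (*Gabrg3*) to 28.8% (*Gabrd*). The part of free RNA in these values was not tested.

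**Figure D1:**
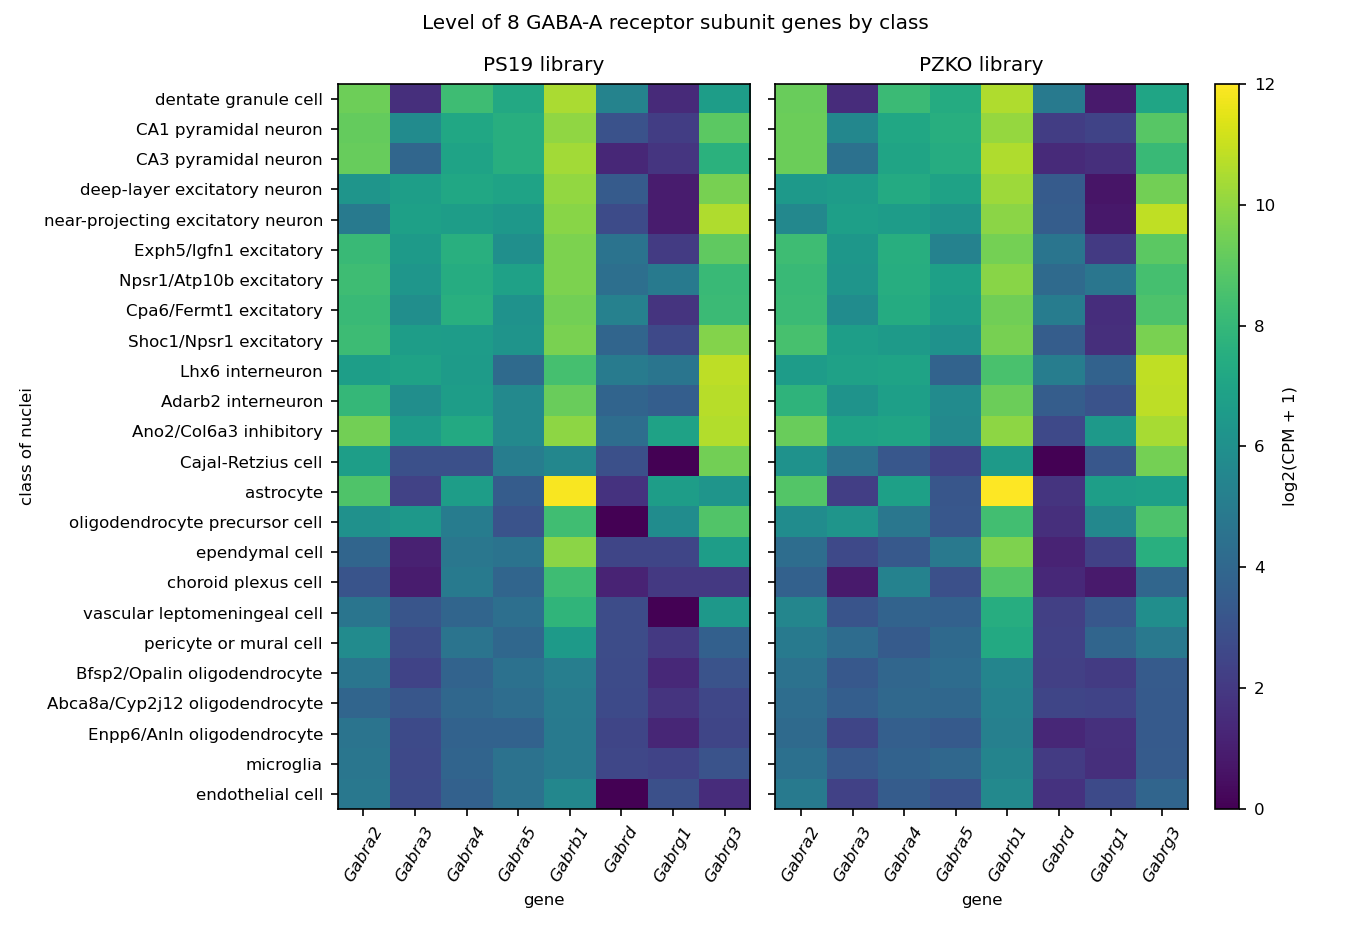
Colour map of log2(CPM + 1) for each gene (columns) in each class of nuclei (rows), in the PS19 library (left) and the PZKO library (right). *Gabrb1* is brightest in astrocytes (3813 and 4091 CPM), and *Gabrg3* in the interneuron classes and near-projecting neurons. In the oligodendrocyte clusters, microglia and endothelial cells the 8 genes reach no more than 48.9 CPM (*Gabrb1* in PZKO endothelial cells).

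*Gabrb1* encodes the beta 1 subunit, and its highest level lay outside neurons. Astrocytes held 3813 CPM in PS19 (exact Poisson interval 3771 to 3856) and 4091 CPM in PZKO (4053 to 4128). Dentate granule cells, next in order, held 1418 CPM in PS19 and 1522 CPM in PZKO, so that the astrocyte level was 2.69 times theirs in each library. Against microglia the astrocyte level was 132 times higher in PS19 and 99.3 times higher in PZKO. For each thinned share, here and below, nuclei were thinned to 2000 UMIs and those with fewer were left out. *Gabrb1* was then read in 98.9% of PS19 astrocytes and 99.2% of PZKO astrocytes, against 5.35% and 7.79% of microglia. Median depths of all nuclei before thinning were 6897.5 and 8959 UMIs in astrocytes and 3313 and 4179.5 UMIs in microglia. CA3 neurons (1294 CPM in PS19 and 1538 CPM in PZKO) did not stand apart from dentate granule cells in both libraries. CA1 neurons, deep-layer neurons and near-projecting neurons followed between 927 and 1200 CPM, and *Ano2*/*Col6a3* inhibitory neurons, at 1006 CPM in PS19 and 1000 CPM in PZKO, lay among them. *Adarb2* interneurons held 606 CPM in PS19 and 623 CPM in PZKO, and *Lhx6* interneurons 348 and 371 CPM. Among other glia and lining cells, ependymal cells held 952 CPM in PS19 and 812 CPM in PZKO, choroid plexus cells 307 and 437 CPM, and OPC 315 and 330 CPM. The ependymal level was 33.0 and 19.7 times that of microglia, and the choroid plexus level 10.7 and 10.6 times.

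*Gabrg1*, which encodes the gamma 1 subunit, was the other member with astrocytes near the top. Its level was 100 CPM in PS19 astrocytes and 106 CPM in PZKO astrocytes, 28.3 and 24.9 times that of CA1 neurons. OPC held 56.5 CPM in PS19 and 48.0 CPM in PZKO. Among the named neuron classes it was highest in the inhibitory neurons led by *Ano2* and *Col6a3*, with 119 CPM in PS19 and 88.3 CPM in PZKO. The excitatory cluster led by *Npsr1* and *Atp10b* held 29.7 CPM in PS19 and 24.9 CPM in PZKO, while granule cells, CA1 neurons and CA3 neurons all stayed at or below 4.26 CPM, near the microglial 4.29 CPM in PS19 and 2.09 CPM in PZKO. On chromosome 5, therefore, *Gabrg1* was at background in granule cells and pyramidal neurons, where its neighbours *Gabra2*, *Gabra4* and *Gabrb1* were all read.

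*Gabra2*, the alpha 2 gene, was highest in the hippocampal principal cells and the *Ano2*/*Col6a3* inhibitory neurons. Granule cells held 653 CPM in PS19 and 620 CPM in PZKO, CA3 neurons 591 and 642 CPM, and CA1 neurons 571 and 637 CPM. The *Ano2*/*Col6a3* inhibitory neurons held 688 CPM in PS19 and 602 CPM in PZKO, and the order among these 4 classes was not the same in both libraries. Astrocytes followed at 412 CPM in PS19 and 449 CPM in PZKO. The excitatory clusters led by *Shoc1*/*Npsr1*, *Npsr1*/*Atp10b*, *Exph5*/*Igfn1* and *Cpa6*/*Fermt1* came next, between 275 and 361 CPM over both libraries. Deep-layer neurons, identified by *Foxp2*, *Hs3st4* and related markers, held 75.8 CPM in PS19 and 90.1 CPM in PZKO, so that the CA1 level was 7.54 and 7.07 times theirs. Near-projecting neurons (5 markers, among them *Tshz2* and *Vwc2l*) held 28.6 CPM in PS19 and 48.0 CPM in PZKO, and the PS19 value did not stand apart from microglia. These 2 markers were also raised in the *Npsr1*/*Atp10b* cluster, whose mean score over the 5 markers was 1.20, against 3.14 in near-projecting neurons. Thinned to 2000 UMIs, 69.3% of PS19 granule cells and 66.9% of PZKO granule cells had a *Gabra2* UMI, against 5.47% and 4.04% of microglia.

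*Gabra3*, the alpha 3 gene, ran the other way through the excitatory classes. Near-projecting neurons held 112 CPM in PS19 and 108 CPM in PZKO, deep-layer neurons 106 and 99.1 CPM, and the cluster led by *Shoc1* and *Npsr1* 103 CPM in each library. *Lhx6* interneurons held 118 CPM in PS19 and 114 CPM in PZKO, and none of these classes stood apart from its neighbour in the order. CA1 neurons were lower (54.9 CPM in PS19 and 45.6 CPM in PZKO) and CA3 neurons lower again (14.7 and 21.0 CPM). Granule cells held 31 and 21 UMIs in PS19 and PZKO over all their nuclei, 2.02 and 1.88 CPM, below the microglial 5.21 and 8.96 CPM. The deep-layer level was 52.2 times that of granule cells in PS19 and 52.7 times in PZKO. In glia, OPC held 84.1 CPM in PS19 and 76.6 CPM in PZKO, 20.04 and 21.2 times the astrocyte level.

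*Gabra4*, the alpha 4 gene, was highest in granule cells, with 309 CPM in PS19 and 293 CPM in PZKO. This level stood apart from that of every other named class in both libraries, at 2.18 and 2.10 times CA1 and 2.54 and 2.29 times CA3. The excitatory clusters led by *Exph5* and *Igfn1* (190 CPM in PS19, 185 CPM in PZKO) and by *Cpa6* and *Fermt1* (187 and 167 CPM) came next. *Gabrb1*, whose start lies beside that of *Gabra4*, was 2.69 times higher in astrocytes than in granule cells, whereas *Gabra4* in astrocytes was at 101 CPM in PS19 and 111 CPM in PZKO. The head-to-head pair thus had different classes at the top.

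*Gabrd*, the delta gene and the shortest of the 8, held 17.1 CPM over all nuclei in PS19 and 15.4 CPM in PZKO. Granule cells held 40.2 CPM in PS19 (interval 37.1 to 43.5) and 29.2 CPM in PZKO (26.1 to 32.5). The *Cpa6*/*Fermt1* cluster held 38.1 CPM in PS19 and 31.9 CPM in PZKO, *Lhx6* interneurons 30.9 and 33.3 CPM, and the *Exph5*/*Igfn1* cluster 23.0 and 24.3 CPM. The first 3 of these classes could not be put in order. CA3 neurons, at 1.56 CPM in PS19 and 1.72 CPM in PZKO, were below microglia, and the granule cell level was 25.7 and 17.003 times theirs. OPC had 0 UMIs in the PS19 library and 5 in the PZKO library.

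*Gabra5*, the alpha 5 gene, was highest in pyramidal neurons and granule cells. CA3 neurons held 185 CPM in PS19 and 174 CPM in PZKO, CA1 neurons 180 and 186 CPM, and granule cells 150 and 168 CPM, and the order of CA1 and CA3 changed between libraries. CA3 neurons did not stand apart from granule cells in both libraries. Thinned to 2000 UMIs, 28.7% of PS19 and 27.1% of PZKO CA1 neurons had a *Gabra5* UMI, against 3.89% and 2.89% of microglia. Deep-layer neurons (122 CPM in PS19, 118 CPM in PZKO) and the *Npsr1*/*Atp10b* cluster (114 and 111 CPM) came below. *Lhx6* interneurons, at 16.6 CPM in PS19 and 12.9 CPM in PZKO, did not exceed microglia, and the CA1 level was 10.9 and 14.4 times theirs. Astrocytes (10.1 and 8.30 CPM) were below the background too.

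*Gabrg3*, the gamma 3 gene and the neighbour of *Gabra5*, had a different pattern. *Lhx6* interneurons held 1777 CPM in PS19 (interval 1741 to 1814) and 1863 CPM in PZKO (1835 to 1891), *Adarb2* interneurons 1656 and 1808 CPM, *Ano2*/*Col6a3* inhibitory neurons 1594 and 1390 CPM, and near-projecting neurons 1497 and 1856 CPM. These 4 classes stood apart from all the others. Deep-layer neurons held 754 CPM in PS19 and 687 CPM in PZKO, CA1 neurons 504 and 464 CPM, CA3 neurons 200 and 283 CPM, and granule cells 101 and 132 CPM. The *Lhx6* level was 17.6 times that of granule cells in PS19 and 14.1 times in PZKO. OPC held 429 CPM in PS19 and 402 CPM in PZKO, 5.68 and 3.61 times astrocytes. Thinned, 75.6% of PS19 and 77.6% of PZKO *Lhx6* interneurons had a *Gabrg3* UMI, against 0.973% and 2.02% of microglia.

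The mix within a class was compared between genes per kb of gene span, because the raw shares favour the 2 longest genes. In astrocytes, *Gabrb1* made up 84.4% of the UMIs of the 8 genes in PS19 (exact binomial interval 84.0% to 84.8%) and 83.8% in PZKO (83.5% to 84.1%). Per kb of span its share was 58.0% and 57.7%, with *Gabra2* next at 22.3% and 22.5%. A single gene thus held most of the astrocyte mix on both scales. In *Lhx6* interneurons, *Gabrg3* made up 70.6% of UMIs in PS19 and 70.9% in PZKO, but 31.1% and 31.0% per kb, with *Gabrd* close behind at 27.6% and 28.3%. The short *Gabrd* gene, with 1.23% and 1.27% of the UMIs, thus came second per kb of span in these cells. Per kb of exon it held 4.24% and 4.41%, behind *Gabrg3*, *Gabra3*, *Gabrb1*, *Gabra4* and *Gabra2*.

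Granule cells were led per kb by *Gabra2* (29.9% in PS19 and 29.9% in PZKO), followed by *Gabra4* (22.1% in each library), with *Gabrd* at 19.4% and 14.8% and *Gabrb1* at 18.3% and 20.7%. On the same scale CA1 and CA3 neurons shared the lead of *Gabra2* (37.0% and 40.2% in CA1, 40.3% and 40.1% in CA3) and had *Gabrb1* and *Gabra5* after it, with *Gabrd* at 4.81% and 2.38% in CA1 and 1.12% and 1.13% in CA3. The *Ano2*/*Col6a3* inhibitory neurons also had *Gabra2* first (33.7% and 35.5%). Deep-layer neurons were led by *Gabrb1* (27.3% and 29.5%) and *Gabra4* (20.5% and 21.9%), and near-projecting neurons by *Gabrg3* (31.0% and 33.8%) and *Gabrb1* (26.2% and 23.9%). OPC had 3 genes of nearly equal share in PS19, *Gabrb1* at 20.1%, *Gabrg3* at 20.05% and *Gabrg1* at 19.3%, and in PZKO these were 21.9%, 19.5% and 17.03%. Per kb of exon in place of span, the first gene was another in 8 of the 14 classes. *Gabrb1* then stood first in granule cells (32.8% in PS19 and 34.6% in PZKO), in CA3 neurons (34.1% and 36.5%, with *Gabra2* at 28.2% and 27.6%) and in the *Cpa6*/*Fermt1*, *Exph5*/*Igfn1* and *Npsr1*/*Atp10b* clusters. *Gabrg3* then stood first in *Ano2*/*Col6a3* neurons (34.8% and 33.4%), OPC (34.6% and 34.2%) and the *Shoc1*/*Npsr1* cluster. Astrocytes, *Lhx6* and *Adarb2* interneurons, CA1, deep-layer and near-projecting neurons had the same first gene on both scales.

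**Figure D2:**
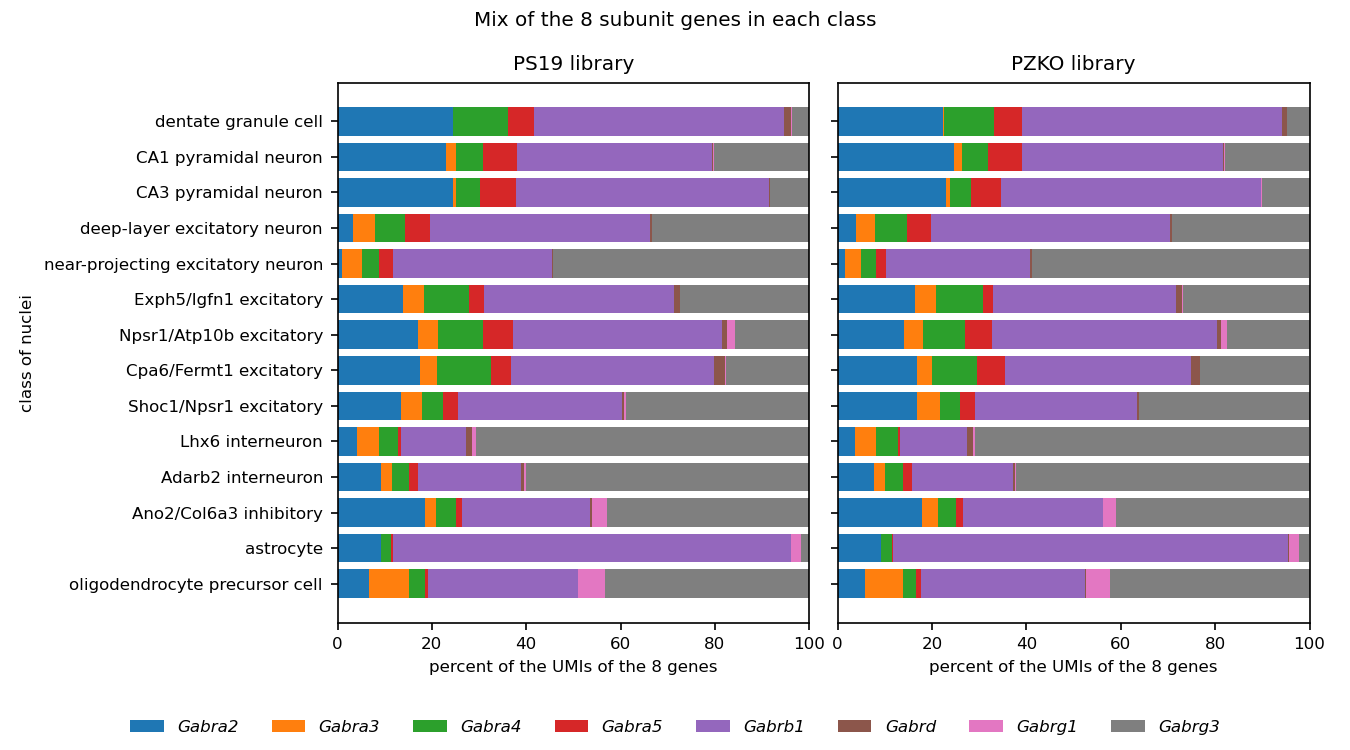
Share of each gene in the UMIs of the 8 genes, in percent and not scaled by length, as 1 stacked bar per class for the PS19 library (left) and the PZKO library (right). *Gabrb1* fills 84.4% and 83.8% of the astrocyte bars and *Gabrg3* 70.6% and 70.9% of the *Lhx6* bars.

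The *Lhx6* and *Adarb2* interneurons were each divided further, a step added after the data had been seen. Every subcluster of *Lhx6* interneurons was put in a group by the larger of its mean marker scores. The scores were over *Pvalb*, *Tac1* and *Kcnc1*, markers of fast-spiking basket cells, and over *Sst*, *Grin3a*, *Elfn1* and *Npy*, markers of dendrite-targeting cells. Of 10 subclusters, 6 fell in the *Pvalb* group (120 PS19 and 159 PZKO nuclei) and 4 in the *Sst* group (98 and 122 nuclei). *Pvalb* was 111 CPM in PS19 and 86.7 CPM in PZKO in the former, and 20.2 and 2.52 CPM in the latter. *Sst* was 17.3 and 10.1 CPM in the former, and 298 and 210 CPM in the latter. The 8 genes were again left out of the clustering. *Gabrg3* was 2577 CPM in PS19 and 2698 CPM in PZKO in the *Pvalb* group and 735 and 716 CPM in the *Sst* group, 3.51 and 3.77 times higher in the former. *Gabrd* was 48.7 and 53.0 CPM in the *Pvalb* group and 7.65 and 6.29 CPM in the *Sst* group, a ratio of 6.36 in PS19 and 8.42 in PZKO. *Gabra4* stood 2.93 and 2.28 times higher in the *Pvalb* group. All 3 of these genes were thus higher in the *Pvalb* group in both libraries.

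For *Gabra2* and *Gabrg1* the *Sst* group was the higher one. *Gabra2* was 168 CPM in PS19 and 175 CPM in PZKO there, against 58.0 and 44.3 CPM in the *Pvalb* group, 2.90 and 3.94 times higher. *Gabrg1* was 46.3 and 24.2 CPM there, against 7.25 and 4.03 CPM, 6.39 and 5.99 times higher. *Gabra3* (1.36 and 1.71 times) and *Gabrb1* (1.28 and 1.29 times) were higher in the *Sst* group by less.

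Among *Adarb2* interneurons, 3 of 9 subclusters had more *Lamp5* than *Vip* (88 PS19 and 72 PZKO nuclei), 5 had more *Vip* (105 and 100 nuclei), and 1 had neither (18 nuclei and 1 nucleus). *Gabrg3* was 2635 CPM in PS19 and 3084 CPM in PZKO in the *Lamp5* group, 3.23 and 3.86 times the *Vip* group. *Gabrd* had 49 and 50 UMIs (PS19 and PZKO) in the *Lamp5* group (28.2 and 23.5 CPM) and 1 and 2 UMIs in the *Vip* group. *Gabra4* was 142 and 160 CPM in the *Lamp5* group against 70.4 and 66.6 CPM. *Gabra2* was higher in the *Vip* group, at 310 and 306 CPM against 203 and 117 CPM. In both interneuron classes, then, *Gabrg3*, *Gabra4* and *Gabrd* were higher in 1 group and *Gabra2* in the other.

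**Figure D3:**
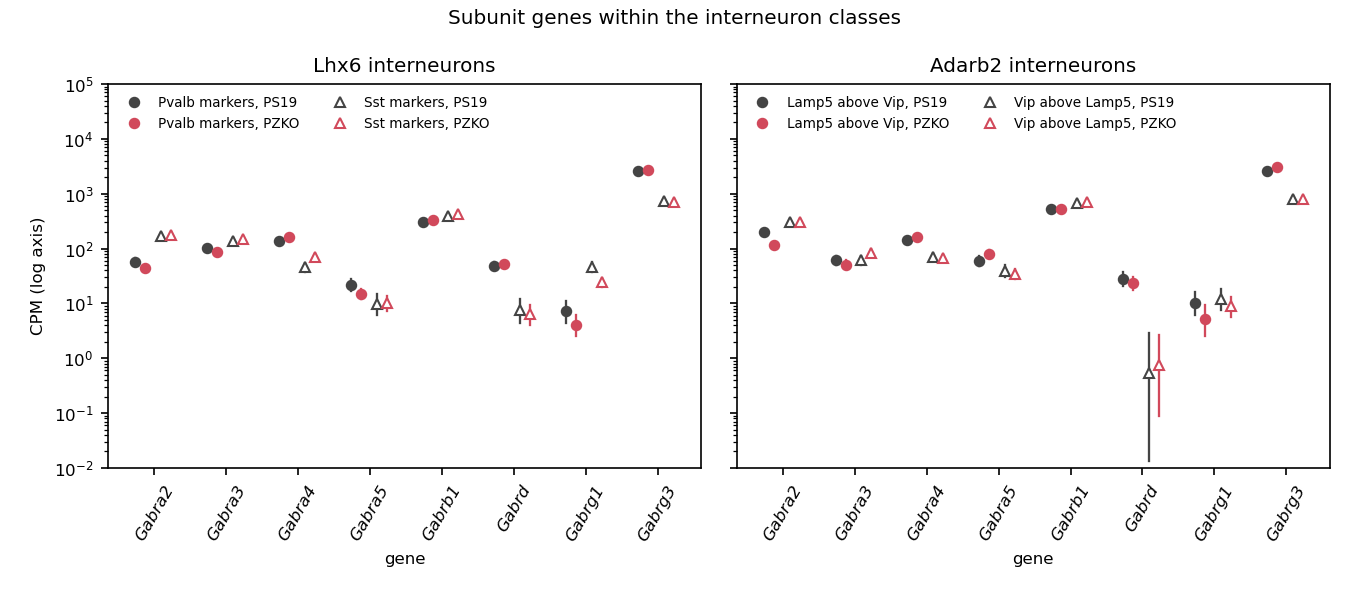
Levels of the 8 genes in CPM, on a log axis, in groups of subclusters of *Lhx6* interneurons (left) and *Adarb2* interneurons (right), with exact Poisson 95% intervals for counting error. *Gabrg3* and *Gabrd* are higher in the *Pvalb* and *Lamp5* groups (circles), and *Gabra2* in the *Sst* and *Vip* groups (triangles).

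Between the genotypes, PZKO was compared with PS19 within each class by the log2 ratio of CPM, with an exact conditional interval (Clopper-Pearson). A gene is called higher or lower where that ratio is at least 0.5 in size, its interval leaves out 0 and the class holds at least 100 UMIs of the gene over both libraries. Of 112 pairs of gene and class, 95 had 100 UMIs, 14 had between 20 and 99, and 3 had fewer than 20. Of the 95 pairs, 5 were higher in PZKO (5.26%) and 3 lower (3.16%). Over all genes with 100 UMIs, between 1.11% and 8.52% were higher and between 3.33% and 9.92% lower in these 14 classes. The 8.52% was that of *Ano2*/*Col6a3* neurons, where no subunit gene was called, and the next highest was 4.7% in OPC. The higher share of the subunit genes pools 5 pairs over the 14 classes, so it is not read as an excess over single classes. The number of higher pairs fell under several alternatives and rose under others, as given in the closing section. The lower share of the subunit genes, pooled likewise, lay just under the range over all genes. The ratio was within 0.25 of 0 in 68 of the 95 pairs, above 0 in 43 and below 0 in 52, with a median of -0.03. Class medians over those of the 8 genes with 100 UMIs ran from -0.19 (*Ano2*/*Col6a3* inhibitory neurons) to 0.18 (CA3 neurons), and over all genes from -0.09 to 0.01. A range was set for each class by the medians of the lower and upper limits of its subunit genes. It is not a 95% interval of the median. Under the alternatives run, the class median left this range in 6 of the 14 classes. In *Adarb2* interneurons the median went from 0.07 to -0.34 with separate clustering of the libraries. Genes that span at least 100 kb, as 5 of these 8 do, had class medians between 0.06 and 0.17, and shorter genes between -0.13 and -0.01, and the part of gene length in the values was not tested.

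**Figure D4:**
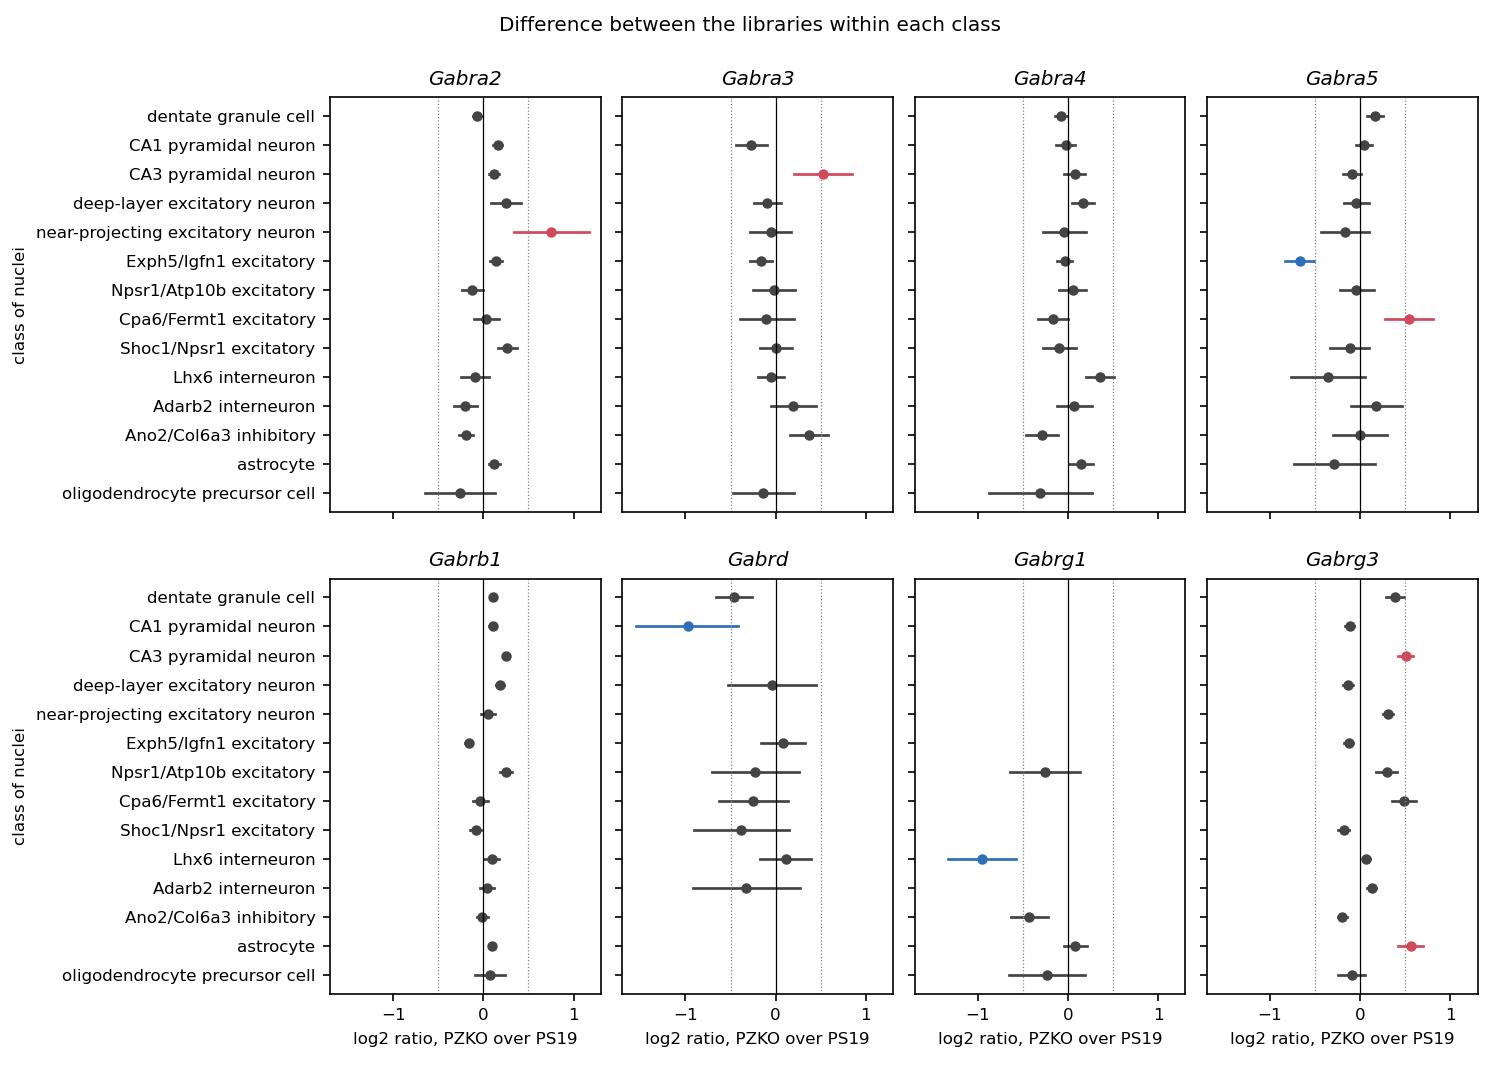
Log2 ratio of PZKO over PS19 for each gene and class with at least 100 UMIs, with 1 panel per gene, 95% intervals for counting error and dotted lines at 0.5 and -0.5. The 5 higher pairs are red, the 3 lower pairs blue, and most points lie between the dotted lines.

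In granule cells, the class with the most neuronal nuclei, 0 of 6 subunit genes passed the fold, where 1.11% of all genes were higher and 6.71% lower. *Gabrd* came nearest below, with a log2 ratio of -0.46 (interval -0.66 to -0.27), and *Gabrg3* nearest above, at 0.39 (0.28 to 0.49). *Gabra2* and *Gabra4* differed by -0.08 each, *Gabrb1* by 0.10 and *Gabra5* by 0.16. In CA1 neurons (1.56% of all genes higher, 4.83% lower) 1 of 7 genes was called, *Gabrd*, with 66 UMIs in PS19, 48 in PZKO and a ratio of -0.98 (-1.54 to -0.42). Both values, 7.06 and 3.59 CPM, lay near the microglial 4.91 and 3.28 CPM. The ratio of *Gabrd* was below 0 in 7 of the 9 classes with 100 UMIs. In the *Ano2*/*Col6a3* neurons *Gabrd* had 51 and 31 UMIs (PS19 and PZKO), or 18.7 and 5.29 CPM, under the minimum for a call.

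In CA3 neurons (3.77% of all genes higher, 4.85% lower) 2 of 6 genes were higher in PZKO. *Gabrg3* was 200 CPM in PS19 and 283 CPM in PZKO, a ratio of 0.50 (0.42 to 0.59). A minority of the nuclei carried it: *Gabrg3* was read in 26.2% of PS19 and 44.1% of PZKO CA3 nuclei, with 27.7 and 33.7 of its UMIs per nucleus that had any, at median depths of 35425 and 48949 UMIs. Thinned to 2000 UMIs, the share was 13.5% in PS19 (9.39% to 18.7%) and 22.7% in PZKO (17.3% to 29.0%), against 59.6% of PS19 CA1 nuclei. The share of such nuclei thus moved with the level, and whether the CA3 class held a different mix of nuclei in each library was not tested. *Gabra3* was 14.7 and 21.0 CPM, a ratio of 0.52 (0.20 to 0.85). The call of *Gabra3* is unsure: its ratio fell to -0.07 at a clustering resolution of 0.5 and to -0.26 with separate clustering of the libraries, which changed the nuclei in the class. Its thinned share was 2.62% and 2.37%. *Gabrg3* stayed above 0 under each alternative run, with values from 0.38 to 0.61, and fell short of the fold under 4 of them.

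In the excitatory clusters, *Gabra5* differed in opposite directions. It was 68.6 CPM in PS19 and 99.4 CPM in PZKO in the *Cpa6*/*Fermt1* cluster (3.89% of all genes higher, 8.9% lower), a ratio of 0.54 (0.27 to 0.81), the 1 called of 7 genes there. Its thinned share was 8.79% of PS19 nuclei (3.87% to 16.6%) and 16.3% of PZKO nuclei (11.8% to 21.5%). The call was lost under 3 alternatives, at 0.49 as a mean over nuclei, 0.41 with a stricter filter and 0.43 without doublet removal, and 2 other clusterings did not find the class. In the *Exph5*/*Igfn1* cluster (3.37% higher, 3.33% lower) it was 61.5 and 38.6 CPM, a ratio of -0.67 (-0.83 to -0.51), again the 1 called of 7. The thinned share of nuclei with a *Gabra5* UMI was 9.23% in PS19 (6.36% to 12.8%) and 9.02% in PZKO (6.90% to 11.5%), so this lower level did not appear in the share of nuclei. The nuclei of these clusters were not divided alike between the libraries, 91 PS19 and 241 PZKO nuclei in the former and 336 and 632 in the latter, and the ratio in the *Exph5*/*Igfn1* cluster was -0.17 at a resolution of 0.5. In near-projecting neurons (2.72% higher, 5.78% lower) *Gabra2* was the 1 called of 6, with a ratio of 0.75 (0.34 to 1.17) at levels close to the background. Its thinned share, 3.64% and 5.23%, was near the microglial one. When an ambient profile was subtracted its ratio became -1.64.

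In the *Npsr1*/*Atp10b* cluster (1.74% higher, 6.09% lower), the *Shoc1*/*Npsr1* cluster (2.64% higher, 4.85% lower) and deep-layer neurons (1.61% higher, 5% lower), 0 of 8, 0 of 7 and 0 of 7 genes passed the fold. The nearest values were 0.29 for *Gabrg3* in the first, -0.39 for *Gabrd* in the second and 0.25 for *Gabra2* in the third. Ratios of *Gabrg3* were between -0.20 and 0.56 over the 14 classes, above 0 in 8 and below 0 in 6.

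In *Lhx6* interneurons (1.86% higher, 5.9% lower) *Gabrg1* was the 1 called of 8 genes. It had 124 and 118 UMIs in PS19 and PZKO, or 24.2 and 12.5 CPM, a ratio of -0.95 (-1.33 to -0.58), which became -2.54 with separate clustering of the libraries. The thinned share of nuclei was 4.61% in PS19 (2.23% to 8.31%) and 2.49% in PZKO (1.01% to 5.07%), and these intervals overlap. Within the *Sst* group, where most of it lay, the ratio was -0.94 (-1.36 to -0.52), and within the *Pvalb* group, with 21 and 22 UMIs, it was -0.85 (-1.78 to 0.09). *Gabrg1* was also lower in *Ano2*/*Col6a3* neurons, by a ratio of -0.43 (-0.63 to -0.23) that did not pass the fold, while in astrocytes it differed by 0.08 (-0.05 to 0.21). In the *Sst* group *Gabra4* was 45.9 CPM in PS19 and 70.7 CPM in PZKO, a ratio of 0.62 (0.29 to 0.97), against 0.36 (0.20 to 0.51) in all *Lhx6* interneurons. In *Adarb2* interneurons (2.44% higher, 7.16% lower) and *Ano2*/*Col6a3* neurons (8.52% higher, 9.92% lower) 0 of 7 genes passed the fold in each. Within the *Lamp5* group *Gabra2* had a ratio of -0.79 (-1.03 to -0.55), and within the *Vip* group -0.02 (-0.17 to 0.14).

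In astrocytes (1.91% of all genes higher, 8.81% lower) *Gabrg3* was the 1 called of 6 genes, with 75.6 CPM in PS19 and 111 CPM in PZKO, a ratio of 0.56 (0.42 to 0.70). With an ambient profile subtracted the ratio was 0.96. It was 0.53 (0.35 to 0.72) in the astrocyte cluster led by *Gpc5* and *Gli3* (514 PS19 and 664 PZKO nuclei) and 0.40 (0.18 to 0.62) in that led by *A2m* and *Myoc* (568 and 503 nuclei), a division added after the data had been seen. The thinned share of astrocytes with a *Gabrg3* UMI was 12.1% in PS19 (10.2% to 14.2%) and 15.4% in PZKO (13.4% to 17.6%). *Gabrb1*, the main astrocyte member, differed by 0.10 (0.08 to 0.12). In OPC (4.7% higher, 7.45% lower) 0 of 6 genes passed the fold, with ratios between -0.31 (*Gabra4*) and 0.07 (*Gabrb1*). Over all nuclei together (2.23% higher, 12.2% lower) none of the 8 genes passed the fold, and *Gabra3* and *Gabrg3* were highest at 0.29 each, a value that also moves with the numbers of nuclei per class.

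The smallest unnamed cluster, led by *Ebf2* and *Corin*, had 13 PS19 and 25 PZKO nuclei. *Gabrg1* was 145 CPM in PS19 and 133 CPM in PZKO there, from 25 and 89 UMIs. These values were above those of every named class in each library, but whether the intervals stood apart was not checked. *Gabra2* was 561 and 923 CPM (a log2 ratio of 0.72), *Gabrb1* 1139 and 2099 CPM (0.88) and *Gabrg3* 463 and 848 CPM (0.87). All 3 passed the fold and *Gabrg1* (-0.12) did not, where 13.6% of all genes were higher and 9.2% lower and the median ratio over all genes was 0.11. The cluster has under the 50 nuclei asked of a class.

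A list of 32 other genes of the GABA system gave 351 pairs with 100 UMIs in the same classes, of which 20 were higher (5.7%) and 24 lower (6.84%) in PZKO. Over all genes, between 3.33% and 9.92% were lower and between 1.11% and 8.52% higher. Only *Ano2*/*Col6a3* neurons were above 4.7% there, and they gave 5 of the 20 higher pairs, from 28 genes of the list. The 5.7% pools this class with the others, so it is not read as an excess over them. Class medians of the list ran from -0.12 in *Adarb2* interneurons to 0.10 in astrocytes. The alternatives in processing were run for these medians and not for single genes of the list, so the calls below were not checked that way. *Slc32a1*, the vesicular GABA transporter, was lower in all 3 inhibitory classes, by a log2 ratio of -0.66 in *Lhx6* interneurons (105 to 66.4 CPM), -0.65 in *Adarb2* interneurons (99.2 to 63.1 CPM) and -1.22 in *Ano2*/*Col6a3* neurons (103 to 44.2 CPM). *Gabarap*, a trafficking protein that binds gamma subunits, was lower in 9 of 13 classes and below 0 in all 13, from 21.8 to 13.9 CPM in granule cells (-0.65). Its relative *Gabarapl1* was lower in 5 of 14, where 3.33% to 9.92% of all genes were lower by class. The microglial levels of *Gabarap* were 87.7 CPM in PS19 and 51.4 CPM in PZKO, above every one of these 13 classes and likewise lower in PZKO. Whether a shift common to the library entered these values was not tested.

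At the inhibitory postsynapse, *Insyn2a* was higher in 5 of 12 classes, in CA3 neurons (10.1 to 15.98 CPM, a ratio of 0.66), the *Exph5*/*Igfn1* cluster (0.66), the *Shoc1*/*Npsr1* cluster (0.81), the *Cpa6*/*Fermt1* cluster (1.28) and *Ano2*/*Col6a3* neurons (1.62). Microglia held 18.1 CPM of it in PS19 and 10.7 CPM in PZKO, above these 5 classes in PS19 and below them in PZKO. The share of all genes higher was between 1.11% and 8.52% by class. *Mdga1*, which limits neuroligin binding, was higher in astrocytes (0.89), deep-layer neurons (0.57) and *Ano2*/*Col6a3* neurons (1.49), and *Iqsec3* in *Adarb2* interneurons (0.52). *Slitrk3* was lower in *Adarb2* interneurons (-0.56) and OPC (-0.59). In astrocytes, *Gabbr2*, a subunit of the metabotropic GABA-B receptor, was 64.1 CPM in PS19 and 117 CPM in PZKO (0.87), and it was also higher in *Ano2*/*Col6a3* neurons (0.63). *Kctd8*, which binds GABA-B receptors, was higher in astrocytes (1.33, at 2.84 and 7.13 CPM) and lower in *Adarb2* interneurons (-0.52).

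Some calls of the list lay near the microglial level. *Gad1* and *Gad2*, the GABA-synthesizing enzymes known for inhibitory neurons, had ratios of -0.93 and -0.83 in astrocytes. The astrocyte levels were 16.8 and 8.84 CPM for *Gad1*, against 17.5 and 10.7 CPM in microglia, and 12.3 and 6.95 CPM for *Gad2*, against 15.6 and 15.5 CPM, so neither is read as expression in astrocytes. The GABA transporter *Slc6a11*, known for astrocytes, had a ratio of 0.64 in CA3 neurons at 5.17 and 8.04 CPM, which is near the microglial 6.44 and 7.17 CPM. In near-projecting neurons *Slc6a11* was higher in PZKO (0.58), at 18.6 and 27.8 CPM. The ambient share estimated for near-projecting neurons was 3.63% in PS19 and 13.3% in PZKO. The part of free RNA in this value was not tested. The chloride importer *Slc12a2* was higher in OPC (0.58) and *Ano2*/*Col6a3* neurons (0.68). Of the trafficking genes, *Plcl1* was higher in OPC (0.78), *Ano2*/*Col6a3* neurons (0.63) and the *Shoc1*/*Npsr1* cluster (0.50) and lower in *Adarb2* interneurons (-0.63), *Plcl2* was higher in astrocytes (0.68), and *Clptm1* was lower in OPC (-0.53). Microglia held 1342 CPM of *Plcl1* in PS19 and 1663 CPM in PZKO, and 630 and 763 CPM of *Plcl2*, above each of these classes, and the part of free RNA in these values was not tested.

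Across the 24 named classes, the members' levels went together in part, given here as Pearson correlations of log2(CPM + 1) with no test, since classes of one library share its depth and free RNA. *Gabra4* and *Gabrb1* (0.84), *Gabra2* and *Gabra4* (0.81) and *Gabra3* and *Gabrg3* (0.80) were the closest pairs, while *Gabrg1* lay between -0.32 and 0.32 with each of the others. The most similar genes were sought among 14819 genes with at least 500 UMIs, with all symbols that start with Gabr passed over. Those most like *Gabra2* were *Gria2* (0.88), *Kcnj3* (0.88) and *Cacng8* (0.87), and those most like *Gabra3* were *Bscl2* (0.94), *Cntn4* (0.94) and *Gng3* (0.93). For *Gabra4* they were *Gm42609*, *Dlgap1* and *Cox7b2* (0.92 each), for *Gabra5* *Camkv* (0.94), *Gm31816* (0.93) and *Camk2a* (0.92), and for *Gabrb1* *Lgi1* (0.93), *Sorcs2* (0.88) and *Nol4* (0.87). *Gabrd* was most like *Oprd1* (0.86), *Kcnj9* (0.84) and *Gm46102* (0.83). *Gabrg1* had the loosest likeness, with *Bcan* (0.76), *Gm9934* (0.75) and *Fam163a* (0.75). *Gabrg3* was most like *Ptprn2*, *Gm9962* and *Chd5* (0.94 each), although *Gm9962* overlaps *Gabra5* on the opposite strand.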

How the data were processed

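Per the labels, nuclear RNA from the hippocampus of male mice aged 9 months was sequenced with 10x Genomics 3′ chemistry, 1 library per genotype. The authors counted UMIs per gene and nucleus on mm10 with Cell Ranger (7.0.1 per the labels, 8.0.1 per the file headers) and deposited these counts without normalization. The steps of the study's methods that follow, among them SoupX, DoubletFinder, Harmony and DESeq2, are not part of the deposited counts.

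Nuclei passed with 600 or more UMIs, 300 or more genes and no more than 5% of UMIs from mitochondria (10466 in PS19 and 10128 in PZKO). Scrublet in scanpy 1.11.5 scored doublets, and those with the highest scores were taken out, 0.8% per 1000 nuclei (876 and 821). From 2000 variable genes without the 8 members, the GABA list, *Zbp1* and sex-linked genes, 30 principal components of both libraries together were clustered with leidenalg 0.10.2 (20 neighbours, resolution 1). Clusters were named from marker lists. Members, lists and the rule for named genes were chosen with earlier results of these data known. All 8 members, each GABA-list gene past the fold and the 3 most similar genes per member outside the Gabr symbols were named, and no test was made. The total kept UMIs set the precision, which the intervals give, and UMIs of a gene in a class were summed and scaled to CPM. The interval was checked on simulated Poisson counts of whole classes, which hold no spread between nuclei, so the check does not reach that spread. Alternatives covered scaling (edgeR 4.0.16, DESeq2 1.42.0), the mean over nuclei, filters, doublets, ambient RNA, resolution, separate clustering, thinning and gene length.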

Additional observations from a re-analysis of the deposited data

Results flagged for a closer look

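*Gabra5* was flagged because its PZKO over PS19 difference ran in opposite directions in 2 excitatory clusters, with a log2 ratio of 0.54 in the *Cpa6*/*Fermt1* cluster and -0.67 in the *Exph5*/*Igfn1* cluster. The difference between the clusters was not tested, since each genotype had 1 library. The former held 91 PS19 and 241 PZKO nuclei and the latter 336 and 632.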

How the results depend on the processing

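No paired analysis was possible because each genotype had 1 library. Intervals cover counting error only, PCR copies were collapsed to UMIs by the authors, and nuclei of 1 library are not replicates. Of the single-gene values recomputed, 603 were counted as kept, 117 moved by more, 14 no longer passed the fold and 3 reversed. A pair without a call was kept if its value stayed within its interval and uncalled, and a called pair if its call stayed. Kept calls could thus lie beyond their interval, as *Gabrg3* in astrocytes did with ambient subtraction and *Gabrg1* in *Lhx6* interneurons with separate clustering. TMM and DESeq2 scaling ended no call and gave 6 higher and 3 lower pairs each. Both moved every ratio of a class up by the same amount, between 0.02 and 0.12 on the log2 scale, the most in the *Cpa6*/*Fermt1* cluster. The reversed values were *Gabra3* in CA3 neurons, -0.067 at resolution 0.5 and -0.26 with separate clustering of the libraries, and *Gabra2* in near-projecting neurons, -1.64 with an ambient profile subtracted. The separate clusterings changed the nuclei in a class, and otherwise the cause was not tested. *Gabrg3* in CA3 neurons was 0.42 with the stricter filter, 0.38 without doublet removal, 0.49 with separate clustering and 0.49 with ambient subtraction, and *Gabra5* in the *Cpa6*/*Fermt1* cluster was 0.49 as a mean over nuclei, 0.41 with the stricter filter and 0.43 without doublet removal.

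The number of pairs higher in PZKO was 3 with the stricter filter, 3 without doublet removal, 2 at resolution 0.5, 9 with separate clustering and 3 with ambient subtraction, and the number lower was 8 with separate clustering. The member median in *Ano2*/*Col6a3* neurons was -0.081 with the stricter filter, -0.0087 without doublet removal, -0.014 at resolution 0.5 and 0.0073 with separate clustering, and in CA3 neurons it was 0.059, 0.055 and 0.062 under the last 3 of these. It also moved to -0.34 in *Adarb2* interneurons with separate clustering, to 0.096 and 0.11 in granule cells with TMM and DESeq2 scaling, to 0.21 in astrocytes with DESeq2 scaling, and to -0.025 in the *Exph5*/*Igfn1* cluster as a mean over nuclei. At resolution 0.5 the *Adarb2*, *Cpa6*/*Fermt1* and near-projecting classes were not found, and with separate clustering the *Cpa6*/*Fermt1* class was not found, so they gave no value there.

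The share of *Gabrb1* in astrocytes was 86.2% (PS19) and 85.6% (PZKO) with ambient subtraction, 58.0% and 57.7% per kb of span, 74.4% and 73.9% per kb of exon, and 83.4% in PZKO as a mean over nuclei. The share of *Gabrg3* in *Lhx6* interneurons was 72.4% and 71.6% with the stricter filter, 78.2% and 76.4% without doublet removal, 66.1% and 67.8% at resolution 0.5, 71.7% and 73.4% with ambient subtraction, 31.1% and 31.0% per kb of span, 58.8% and 59.4% per kb of exon, 69.4% in PS19 as a mean over nuclei and 79.8% in PZKO with separate clustering. The share of *Gabra2* in granule cells was 29.9% and 29.9% per kb of span, 27.3% and 25.5% per kb of exon, and in PZKO 23.0% as a mean over nuclei and 22.9% with ambient subtraction. Unthinned shares of nuclei were 99.8% and 99.7% for *Gabrb1* in astrocytes, 85.3% and 89.7% for *Gabrg3* in *Lhx6* interneurons, and 99.01% and 99.4% for *Gabra2* in granule cells.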

Other observations

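A cluster led by *Adamts19* and *Abhd12b*, left without a name (57 PS19 and 77 PZKO nuclei), held more *Gabra4* and *Gabrd* than any named class. *Gabra4* was 508 CPM in PS19 and 734 CPM in PZKO, and *Gabrd* 89.8 and 73.3 CPM. *Gabrb1* was 1433 CPM in PS19 and 1444 CPM in PZKO there, while *Gabra5*, at 15.4 and 15.3 CPM, did not exceed the microglial level in both libraries.

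Cajal-Retzius cells, with 28 PS19 and 30 PZKO nuclei, held *Gabrg3* at 702 CPM in PS19 and 708 CPM in PZKO and *Gabrb1* at only 45.9 and 91.2 CPM. A cluster led by *Syt9* and *Chrna3* (27 and 26 nuclei) held *Gabra2* at 525 CPM in PS19 and 333 CPM in PZKO, with *Gabrg3* at 8.48 and 4.64 CPM. A cluster led by *Ttn* and *Kntc1* (348 and 258 nuclei, median 818 and 814.5 UMIs) was left without a name and held *Gabrb1* at 667 and 640 CPM. A cluster led by *Mrc1* and *Themis* (58 and 57 nuclei) held 20 and 90 UMIs of the 8 genes in all.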
